A study of Mus musculus with 12 samples.

Results

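The collagen chains, the laminin chains and their basement membrane partners nidogen, perlecan and agrin were followed across 4 mouse lung adenocarcinoma cell lines. Members were the genes whose only annotated symbol is that of a collagen alpha chain or of a laminin alpha, beta or gamma chain, together with Nid1, Nid2, Hspg2 and Agrn. The arrays measured 56 of them among 18193 genes with a symbol of their own, and Col28a1 and Col6a6 were not analysed here. KC1, KC2 and KC3 are labelled highly metastatic and KC4 poorly metastatic. All 4 lines carry the same alleles, K-rasLA1/+ and Cdkn1a-/-, on a background that the labels give as 127s. K-rasLA1 is a latent oncogenic allele that becomes active by spontaneous recombination, and Cdkn1a codes for the cell cycle inhibitor p21. Each line was grown from primary lung tumours taken at necropsy and cultured in RPMI 1640 with FBS, and each was measured on 3 one-colour Affymetrix arrays of biotin-labelled RNA. The labels speak of 6 tumours from 4 mice and do not say which line came from which mouse. Each class is known only through these lines, and the poorly metastatic one through KC4 alone. The 3 arrays of a line are labelled biological replicates, with nothing to say that they came from separate cultures, so p-values measure the spread between such arrays and not between tumours.

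Basement membranes are thin sheets of matrix under epithelia. Laminin trimers, each of 1 alpha, 1 beta and 1 gamma chain, and collagen IV trimers form separate networks in them, which nidogens and the heparan sulfate proteoglycans perlecan (Hspg2) and agrin (Agrn) help to link. The fibrillar collagens are mostly made by fibroblasts and give connective tissue its strength, while collagen VI forms beaded filaments near cells and collagen VII anchors the epidermal basement membrane to the tissue below.

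The 6 collagen IV genes lie in 3 head-to-head pairs, Col4a1 with Col4a2, Col4a3 with Col4a4, and Col4a5 with Col4a6. The sequence upstream of Col4a1, Col4a5, Col4a6 and Nid1 is shown because Col4a1, Col4a5 and Nid1 differ between the lines, while Col4a6, the neighbour of Col4a5, was not called. All were taken from RefSeq on build GRCm38.p6 and end where the gene's most upstream annotated start begins. Capitals mark CCAAT and GGGCGG, each searched on both strands, and both motifs together with TGANTCA and TATAAA were looked for. The stretches lie at chr8:11312890-11313076 on the minus strand (Col4a1), chrX:141475169-141475369 on the plus strand (Col4a5), chrX:141474096-141474326 on the minus strand (Col4a6) and chr13:13437352-13437601 on the plus strand (Nid1).
Col4a1: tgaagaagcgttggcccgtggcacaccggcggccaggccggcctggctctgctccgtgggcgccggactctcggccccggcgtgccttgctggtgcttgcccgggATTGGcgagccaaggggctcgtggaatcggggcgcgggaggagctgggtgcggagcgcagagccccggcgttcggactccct
Col4a5: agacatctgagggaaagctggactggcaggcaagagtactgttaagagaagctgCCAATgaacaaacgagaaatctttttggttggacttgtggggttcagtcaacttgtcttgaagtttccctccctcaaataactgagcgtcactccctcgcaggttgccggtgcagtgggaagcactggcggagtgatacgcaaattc
Col4a6: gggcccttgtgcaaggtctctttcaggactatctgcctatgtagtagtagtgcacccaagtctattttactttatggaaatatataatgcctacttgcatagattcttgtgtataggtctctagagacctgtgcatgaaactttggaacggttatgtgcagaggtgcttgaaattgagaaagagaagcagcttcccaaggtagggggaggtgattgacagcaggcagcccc
Nid1: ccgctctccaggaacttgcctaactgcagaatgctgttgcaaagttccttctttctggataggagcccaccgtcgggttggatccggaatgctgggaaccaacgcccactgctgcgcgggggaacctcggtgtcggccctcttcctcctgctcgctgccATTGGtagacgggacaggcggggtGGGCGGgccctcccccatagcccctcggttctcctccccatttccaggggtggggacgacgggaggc

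Promoter windows run from 250 bases before a start to 50 after it, and that start need not be the most upstream one. For Col4a1 and Col4a2 the starts of the windows lie 21 bases apart and the windows share 78 bases, so this pair has 1 promoter region in common. The Col4a1 stretch shown lies inside Col4a2 and, because it ends at a start farther upstream, holds none of the shared bases. By the same measure the starts of Col4a6 and Col4a5 are 1343 bases apart, and their windows do not meet. The Col4a1 stretch has 22 CG dinucleotides in 187 bases, and that of Nid1 has 16 in 250. The 2 stretches on the X chromosome hold few, 6 in 201 bases for Col4a5 and 1 in 231 for Col4a6. RefSeq windows were matched for 41 of the 56 members, 46 windows in all. CCAAT occurred in 32.6% of these and in 37.4% of all 32851 windows. GGGCGG, a GC box, occurred in 63% against 35.7%, TATAAA in 10.9% against 13.6%, and TGANTCA in 2.17% against 7.81%. A match describes letters in the window and no site, and these shares were not tested.

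Signals are log2 values after signals under 16 were raised to that floor, so the lowest value is 4.00, and each gene is read on its brightest probe set. The median signal ran from 94.5 to 128 over the arrays, and 15.3% to 19.9% of probe sets lay at or under the floor. The 8 epithelial markers had line means of 9.35 or more, for example Krt8 with means from 14.01 to 14.17, and Ap1m2 was called lower in KC4. Their summed signal was 73000 to 86700 in KC4 and 86500 to 106000 in the other lines. Of 25 fibroblast, endothelial and leukocyte markers none was called between the classes by limma (3 at an unadjusted p under 0.05 with no minimum difference), and Pdgfrb, Tie1 and Vwf lay at the floor on all 12 arrays. The summed signal of the 10 fibroblast markers was 807 to 963 in KC1, 829 to 1050 in KC2, 637 to 939 in KC3 and 716 to 1080 in KC4. Of the lung lineage markers Napsa lay at the floor on all arrays and Nkx2-1 had means of 4.18 to 5.41. Fewer cells of a type and less RNA per cell cannot be told apart in such bulk samples. The control probe set at the 5-prime end of 18S ribosomal RNA ran from 2710 to 4380 in KC4 and from 369 to 679 in the other lines. This control moved with every KC4 difference below. The epithelial sum also tended to be lower in KC4, but its KC4 range overlapped that of KC2 (86500 to 106000). The part of either in the KC4 differences was not tested.

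The bright members were mostly chains of epithelial basement membranes. Of the 56, 12 had a mean of at least 8 in every line: Col4a1, Col4a2, Col7a1, Col18a1, Col8a1, Lama3, Lama5, Lamb1, Lamb3, Lamc1, Hspg2 and Agrn. Another 20 stayed under 6 in every line, and Col10a1, Col17a1 and Lama1 lay at the floor on all arrays. Among the 11 fibrillar chains none had a mean of 8 or more in every line. Col1a1, a chain of collagen I, had 5.48 ± 0.29, 5.47 ± 0.68, 5.11 ± 0.81 and 5.85 ± 0.47 (SD, n = 3) in the order KC1 to KC4. Col3a1 stayed between 4.82 and 5.22. Col1a2 read 7.38 to 7.59 on its brightest probe set, while another one was at the floor on all arrays. The level of Col1a2 therefore depends on which probe set is read.

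**Figure D1:**
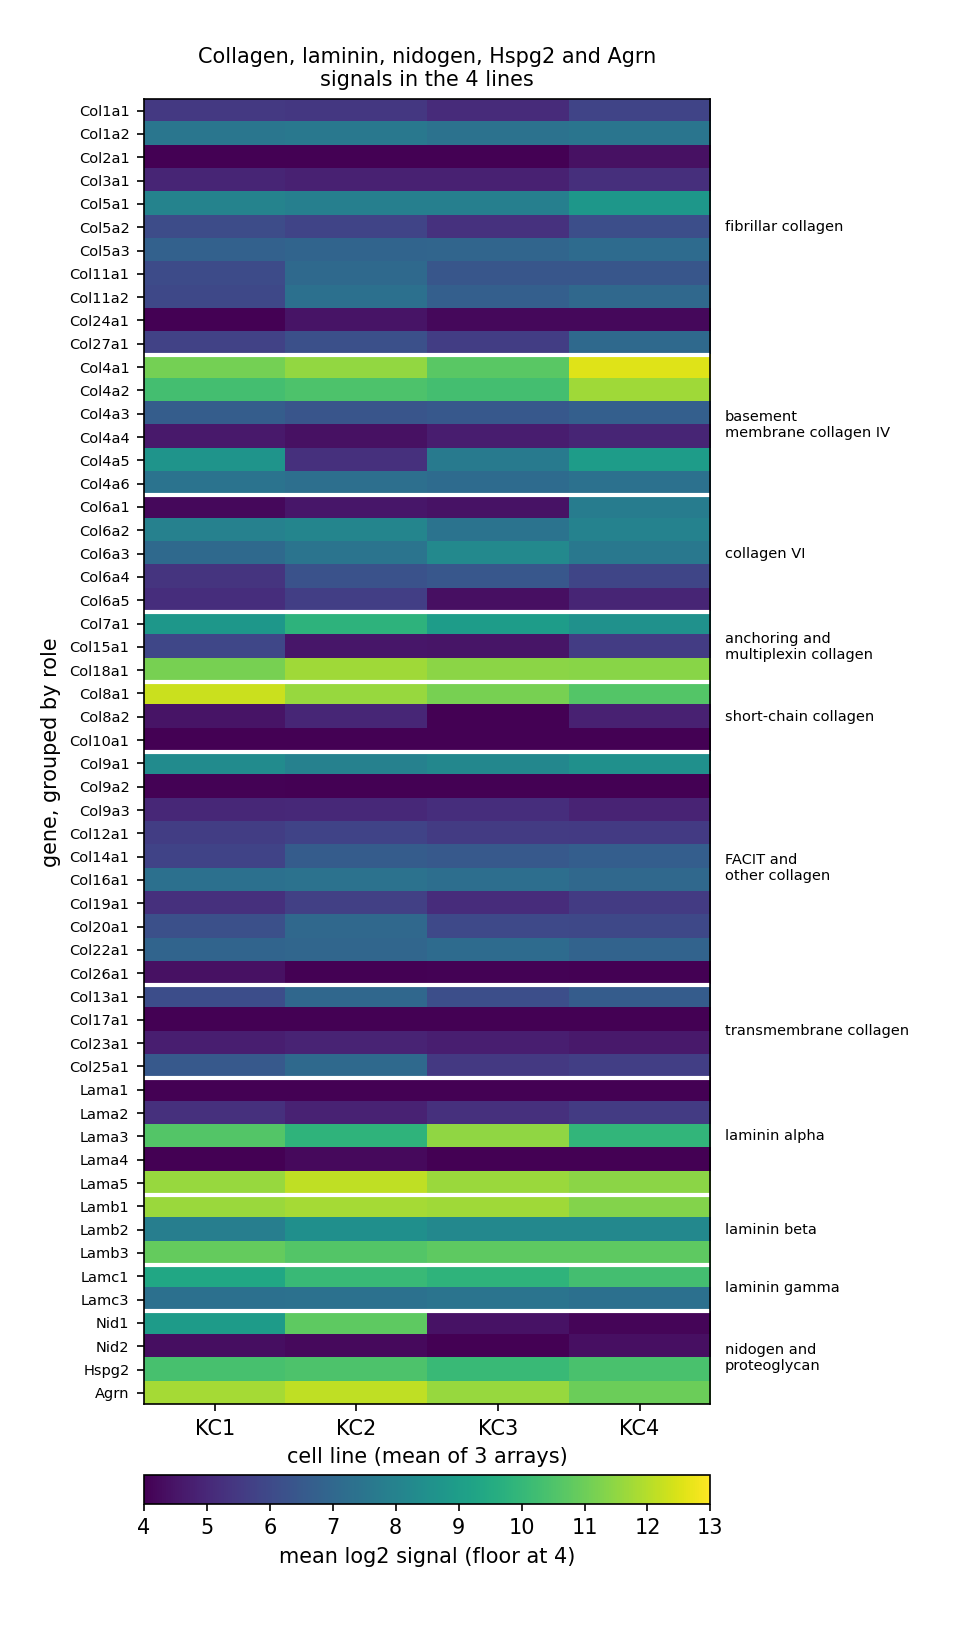
Mean log2 signal (colour, floor at 4) of the 56 members (rows, grouped by role) in the 4 lines (columns, mean of 3 arrays each). The rows of Col4a1, Col18a1, Lama5, Lamb1 and Agrn are bright in every column, whereas Nid1, Col6a1 and Col4a5 change colour from line to line; colours of different rows come from different probe sets and give no ranking of genes.

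A gene was called at a limma adjusted p under 0.05 (Benjamini-Hochberg over all 18193 genes) and a log2 difference of at least 1, that is 2-fold. The design asks which genes differ between highly and poorly metastatic lines, so the mean of KC1, KC2 and KC3 was compared with KC4. Between the classes 6 of 56 members were called, 10.7%, against 5.45% of all genes. Nid1 and Col8a1 were higher in the highly metastatic lines (2.87% of all genes were), and Col4a1, Col4a2, Col4a5 and Col6a1 were lower (2.57%). The median class difference of the members was -0.01, against 0.00 over all genes, so the list did not shift as a whole. Only 3 of the 6, Col4a1, Col4a2 and Col6a1, set KC4 apart, meaning that KC4 was called higher than KC1, KC2 and KC3 alike. These 3 are 5.36% of the members. Over all genes 1.63% set KC4 apart, 0.698% by a higher signal. The comparisons of KC1, KC2 and KC3 with KC4 share the KC4 arrays.

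Across all pairs of lines 13 of 56 members were called at least once, 23.2% against 20.4% of all genes, so the members as a whole differed about as often as genes in general. For KC1 against KC2, 4 members were called (5.01% of all genes), 1 higher and 3 lower in KC1 (3.09% and 1.91%). For KC1 against KC3 they were 3 (8.21%), 2 higher and 1 lower in KC1 (5.33% and 2.89%). For KC2 against KC3 they were 5 (10.8%), 3 higher and 2 lower in KC2 (5.9% and 4.94%). That last pair, both highly metastatic, had as many called members as KC1 or KC3 had against KC4. KC1 differed from KC4 in 5 (5.54%), 2 higher and 3 lower in KC1 (3.49% and 2.05%). KC2 differed from KC4 in 9 (9.48%), 5 higher and 4 lower in KC2 (5.02% and 4.46%). KC3 differed from KC4 in 5 (8.22%), 1 higher and 4 lower in KC3 (3.52% and 4.7%). KC2 was set apart by 2 members (1.84% of all genes), Nid1 by a higher signal (0.819%) and Col4a5 by a lower one (1.02%). No member set KC1 (0.863%) or KC3 (2.39%) apart in limma; at an unadjusted p under 0.05 with no minimum difference 5 and 4 did. At an adjusted p under 0.05 without a minimum difference, 14 members differed between the classes, and 32.1% of all genes did. The 8 added this way were Col5a1, Col7a1, Col20a1, Lama3, Lama5, Lamb1, Lamc1 and Agrn. The poorly metastatic class cannot be told apart from the line KC4. In a fit that took line as a random block, Col4a1 (limma adjusted p = 0.015), Col4a2 (5.49e-05) and Col6a1 (0.0106) kept their class calls, and Nid1 (0.357), Col8a1 (0.21) and Col4a5 (0.54) lost theirs. That fit gave all genes the same correlation between arrays of a line (0.559). With KC4 as the only poorly metastatic line it cannot measure the spread among such lines, so these calls do not separate class from line either.

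Both chains of the main collagen IV trimer were higher in KC4. Col4a1 read 12.42, 12.58 and 12.64 on the KC4 arrays, against 11.26, 10.94 and 11.17 in KC1, 11.60, 11.45 and 11.58 in KC2, and 10.71, 10.69 and 10.70 in KC3. Its lowest KC4 array lay above the highest array of any other line. The difference between the classes was -1.43 (SE 0.071, limma adjusted p = 8.65e-07), a 2.69-fold lower signal in the highly metastatic lines. By line it was largest for KC3 (-1.85) and smallest for KC2, where -1.0 (SE 0.087) only just met the minimum difference. Without KC2 replicate 2, KC4 replicate 2 or KC4 replicate 3 the KC2 difference was between -0.96 and -0.99 and was no longer called, so that 2 members set KC4 apart. Quantile normalization likewise gave -0.99, no call and 2 such members. A second Col4a1 probe set gave -1.40 between the classes and also set KC4 apart.

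Col4a2 read 11.64, 11.70 and 11.76 in KC4, 10.39, 10.32 and 10.21 in KC1, 10.53, 10.43 and 10.46 in KC2, and 10.33, 10.30 and 10.29 in KC3. The KC4 arrays again stood clear of the others, whose 9 values lay within a narrow band. The class difference was -1.34 (SE 0.042, adjusted p = 5.11e-08), with -1.39, -1.22 and -1.39 for KC1, KC2 and KC3. The 2 genes of the shared promoter region thus differed between KC4 and each other line in the same direction, Col4a2 by nearly the same amount everywhere and Col4a1 by amounts from -1.0 to -1.85.

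The other collagen IV pairs behaved differently. Col4a5, a chain of the kidney, lung and other specialised basement membranes, read 4.86, 5.02 and 5.88 on the KC2 arrays, against 8.65, 8.62 and 8.71 for KC1, 7.66, 7.43 and 7.92 for KC3, and 8.91, 9.02 and 9.0 for KC4. KC2 was the low line and overlapped no other. KC1 exceeded it by 3.41, and KC2 minus KC3 and KC2 minus KC4 were -2.42 and -3.72. KC1 minus KC4 was -0.32, which was not called. KC3 minus KC4 was -1.30, a call lost on the mean of both probe sets (-0.89). Hence the class difference of Col4a5, -1.78 (SE 0.19, adjusted p = 9.93e-05), rested largely on KC2, and without KC2 it was -0.81, short of a call. On a second probe set KC2 was again the lowest line, at 6.33 ± 0.32 against 7.31 to 7.81, called against KC3 and KC4. There KC1 minus KC2 was only 0.98 and the class difference -0.82, neither of them called, so this probe set did not set KC2 apart. Col4a6, the neighbour of Col4a5, read 7.42 ± 0.21, 7.28 ± 0.28, 7.15 ± 0.51 and 7.37 ± 0.14 in KC1 to KC4 and was called in no pair. A second Col4a6 probe set was at or near the floor, with means of 4.02 to 4.45. The level of Col4a6 therefore depends on which probe set is read. Col4a3 (means 6.38 to 6.73) and Col4a4 (4.41 to 4.93) were not called either, and a second Col4a3 probe set had means of 4.00 to 4.05.

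Collagen VI is built from an alpha1, an alpha2 and an alpha3 or related chain. Col6a1 read 7.78, 7.76 and 7.76 in KC4, against 4.03, 4.00 and 4.55 in KC1, 5.26, 4.26 and 4.10 in KC2, and 4.00, 4.26 and 5.04 in KC3. The other lines sat at or near the floor, with 1 array each of KC1 and KC3 on it. The class difference was -3.38 (SE 0.28, adjusted p = 1.98e-05), and -1.77 with a floor of 64, so its size depends on the floor. Col6a2 did not share this pattern. Its means were 7.95 ± 0.26, 8.11 ± 0.38, 7.43 ± 0.45 and 7.98 ± 0.04 in KC1 to KC4, with overlapping arrays and no call. Col6a3 was highest in KC3, at 8.27, 8.23 and 8.20, and lowest in KC1, at 7.22, 6.74 and 7.28. Those 2 lines differed by -1.15 (KC1 minus KC3, SE 0.19, adjusted p = 0.00114), a call lost without KC1 replicate 2 (-0.98). The 3 classical collagen VI chains thus had 3 different profiles over the lines. The dim Col6a5 was called between KC2 and KC3 (1.30), but at a floor of 64 this difference was 0.17, and the call was lost without KC2 replicate 1 (0.89) or KC3 replicate 2.

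**Figure D2:**
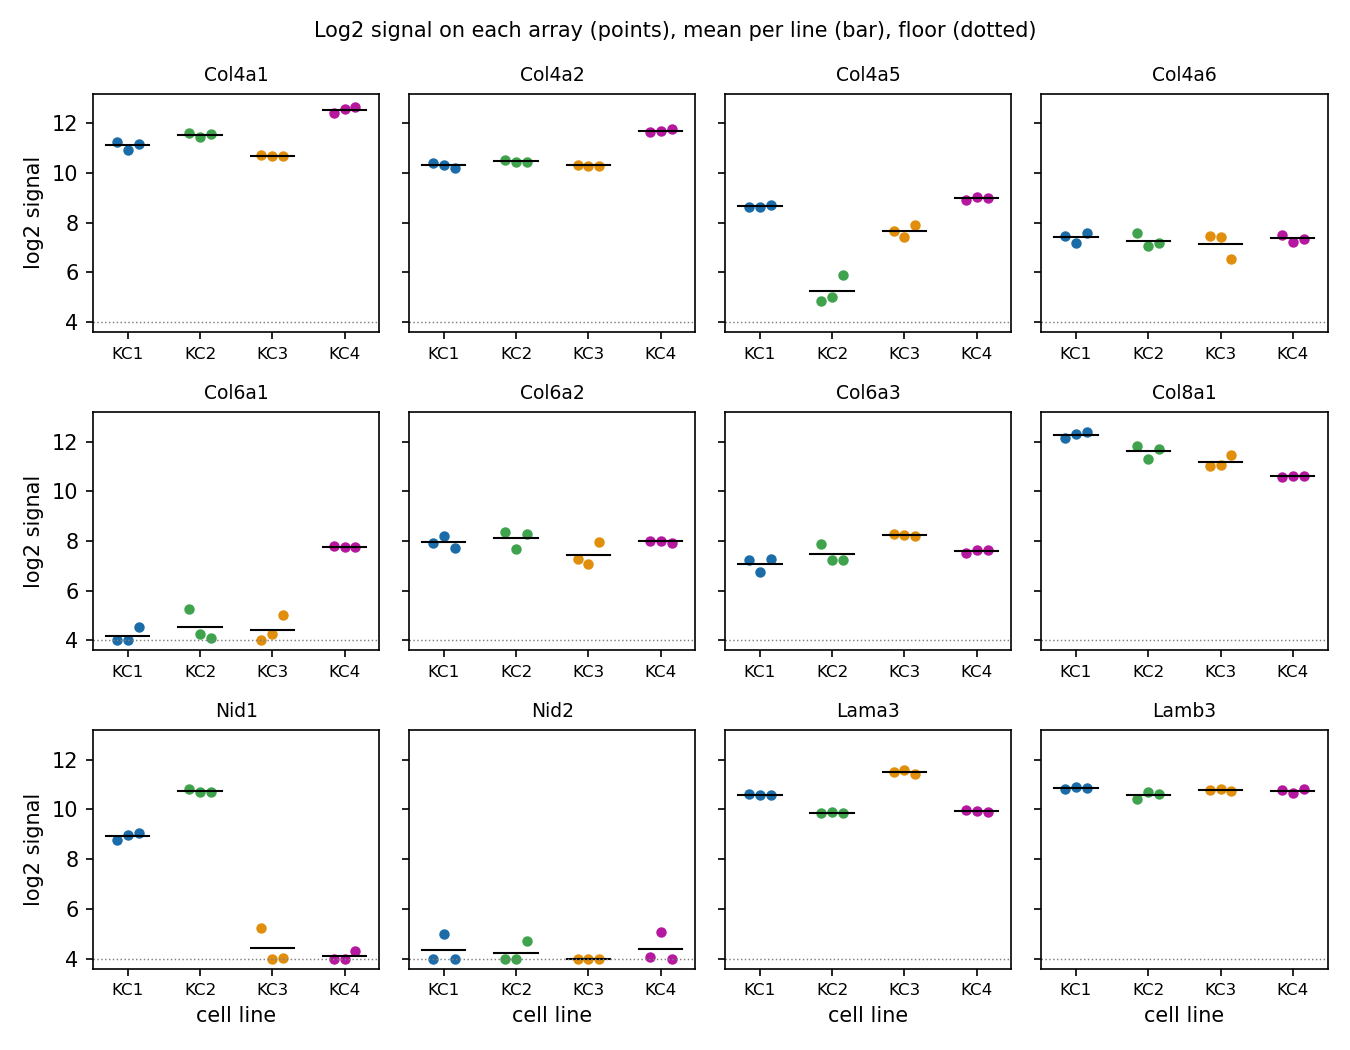
Log2 signal of 12 members on each array (points) by line, with the mean of 3 arrays (bar) and the floor (dotted). Col4a1, Col4a2 and Col6a1 are highest in KC4, Col4a5 is low in KC2, Nid1 is far above the floor in KC1 and KC2 alone, and Col4a6, Nid2 and Lamb3 overlap between lines.

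Nid1, which codes for the nidogen that bridges the laminin and collagen IV networks, had the widest range of all members, 6.64 between the highest and lowest line mean. It read 10.82, 10.71 and 10.71 in KC2 and 8.79, 8.98 and 9.06 in KC1, but 5.25, 4.00 and 4.03 in KC3 and 4.00, 4.00 and 4.32 in KC4. KC3, a highly metastatic line, therefore resembled KC4 and not KC1 or KC2, and the KC3 and KC4 arrays overlapped. KC1 minus KC2 was -1.80, and KC2 exceeded KC3 by 6.32 and KC4 by 6.64 on the log2 scale (SE 0.29 each, largest limma adjusted p = 0.0017), which set KC2 apart. On the floor were 1 KC3 array and 2 KC4 arrays, so the size of the last 2 differences depends on where the floor is set. The class difference of 3.93 (SE 0.24, adjusted p = 2.87e-06) averages lines far apart from each other. A second probe set read 6.31 ± 0.25 in KC2 and lay at the floor on every array of the other lines, KC1 included. Another, dim probe set ran from 4.00 to 4.96 and was not called. The related Nid2 was at or near the floor everywhere, with line means of 4.00 to 4.38, so in KC3 and KC4 both nidogen genes were at or close to the floor.

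The proteoglycan genes varied less. Agrn read 12.10, 12.16 and 12.17 in KC2, 11.88, 11.78 and 11.74 in KC1, 11.59, 11.70 and 11.53 in KC3, and 10.95, 10.87 and 11.14 in KC4. KC4 was the lowest line with no overlap, and KC2 the highest. The call was between KC2 and KC4 (1.16, SE 0.074, adjusted p = 2.95e-06). On the mean of its probe sets it was lost (0.58), but the other Agrn probe set lay at the floor on all 12 arrays, so averaging had to lower the difference. KC1 and KC3 exceeded KC4 by 0.82 and 0.62 (adjusted p = 5.35e-05 and 0.000175), under the minimum difference. Perlecan, Hspg2, stayed between 10.11 ± 0.11 and 10.50 ± 0.10 on its brighter probe set and was not called, but its dimmer one gave KC3 minus KC4 as -1.0 (limma adjusted p = 0.000776).

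Col8a1, a short-chain collagen found in the matrix under endothelia and in remodelling tissue, was graded over all lines. It read 12.14, 12.30 and 12.37 in KC1, 11.82, 11.30 and 11.70 in KC2, 11, 11.04 and 11.45 for KC3, and 10.56, 10.62 and 10.63 for KC4. KC4 lay below every other array, while the arrays of KC2 and KC3 overlapped. KC1 exceeded KC4 by 1.67 (SE 0.15, adjusted p = 5.51e-05) and KC3 by 1.11 (0.90 after median centring, not called). KC2 exceeded KC4 by 1.0, a call lost without KC2 replicate 1, KC2 replicate 3 or KC4 replicate 1 (0.90 to 0.99), after median centring (0.94) or on the mean of its probe sets (0.92). KC3 exceeded KC4 by less than the minimum difference. The class difference of 1.08 (SE 0.12, adjusted p = 0.000151) fell to 0.78 without KC1, short of a call. The 2 dimmer probe sets had the same order of the line means, from 10.29 to 8.54 and from 8.69 to 7.27. Its partner chain Col8a2 was dim, with means of 4.00 to 4.95, and uncalled.

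Neither Col7a1 (0.62) nor Col18a1 (0.04) reached the minimum difference between the classes. Col7a1 was highest in KC2, at 9.73, 10.00 and 9.73, against 8.23 to 9.29 on the arrays of the other lines. KC2 exceeded KC4 by 1.25 (SE 0.18, adjusted p = 0.000457), and KC1 minus KC2 was -1.05. KC2 exceeded KC3 by 0.84, under the minimum. KC1 minus KC2 was -0.99 and -0.96, no longer called, without KC1 replicate 2 or KC2 replicate 2. Col18a1, a collagen that carries heparan sulfate chains and is cut to endostatin, had means of 11.17, 11.72, 11.44 and 11.40 and was not called in any pair.

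**Figure D3:**
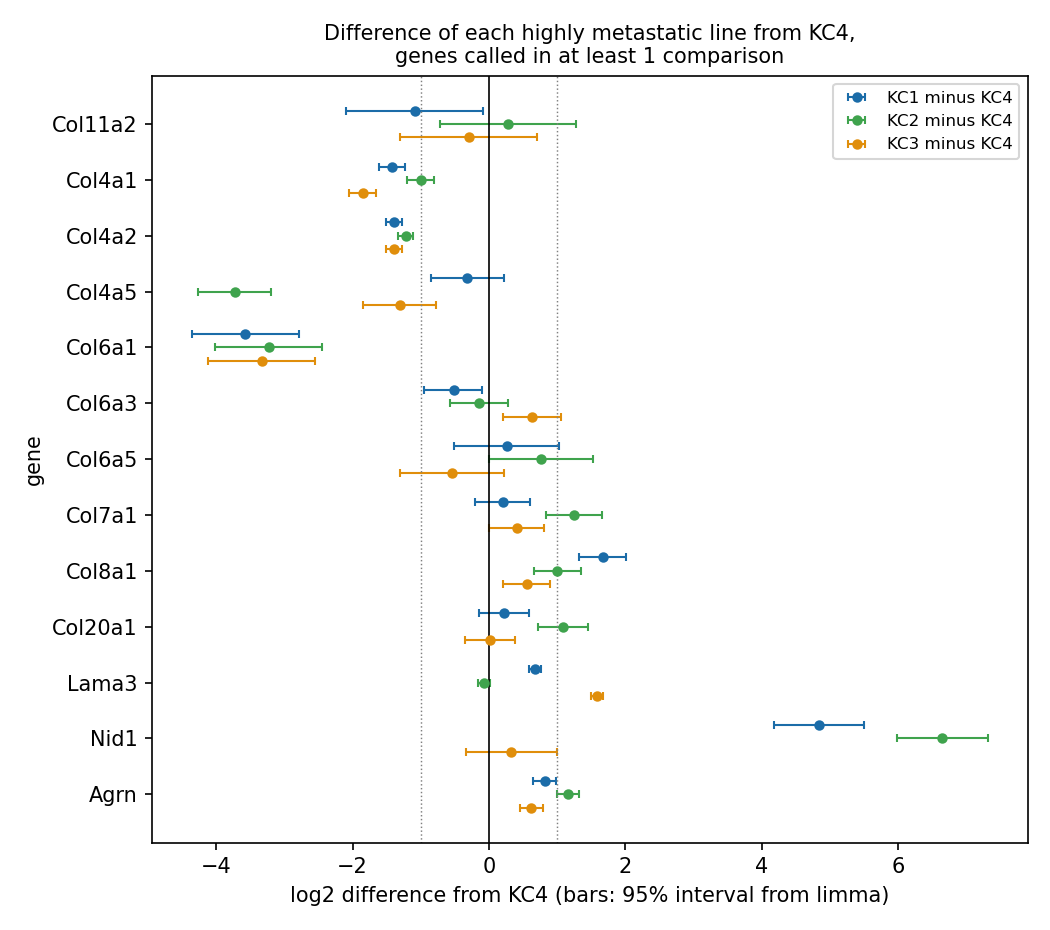
Log2 difference of KC1, KC2 and KC3 from KC4 (points) with the 95% interval from limma (bars) for the 13 members called in at least 1 comparison; dotted lines mark a difference of 1 and the 3 comparisons share the KC4 arrays. Col4a1, Col4a2 and Col6a1 lie left of 0 in all 3 lines, while Nid1 is near 0 in KC3 and above 4 in KC1 and KC2.

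Of the 10 laminin chains measured, 1 was called in any pair of lines, Lama3, where 20.4% of all genes were, and 5 had a mean of at least 8 in every line. Lama3, the alpha chain of the epithelial laminin that anchors cells through hemidesmosomes, read 11.52, 11.57 and 11.43 in KC3, 10.63, 10.58 and 10.58 in KC1, 9.96, 9.92 and 9.91 in KC4, and 9.84, 9.91 and 9.85 in KC2. KC3 was highest with no overlap, KC1 came next, and KC2 minus KC4 was -0.07 (95% interval -0.16 to 0.02). KC2 minus KC3 was -1.64 and KC3 minus KC4 1.58 (SE 0.039, adjusted p = 9.21e-09 and 1.74e-08). KC1 minus KC3 was -0.91, so KC3 was not set apart, though with each array centred on its median it was. A second Lama3 probe set was at or near the floor, and on the mean of both neither difference was called (-0.67 and 0.29).

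Lamb3, the beta chain that pairs with Lama3, stayed between 10.59 ± 0.15 and 10.86 ± 0.04, and its arrays overlapped between lines. Lama5, the broadly expressed alpha chain of adult epithelia, was highest in KC2 at 12.15 ± 0.08 and lowest in KC4 at 11.43 ± 0.12. That difference, 0.72 (adjusted p = 3.99e-05), was under the minimum on the brightest probe set and 1.11 on the next one. Lamb1 was 11.34 ± 0.11 in KC4 against 11.66 to 11.80 in the other lines, and Lamc1 9.36 ± 0.12 in KC1 against 9.85 to 10.31. Lamb2 ran from 7.85 to 8.49 and Lamc3 from 7.31 to 7.46. Lama1, Lama2 and Lama4 had line means of at most 5.57.

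Among the fibrillar chains Col5a1, a regulatory chain of collagen V fibrils, differed by probe set. On the brightest one KC4 read 8.68, 8.82 and 8.75, above the 7.56 to 8.51 of the other arrays. Its class difference, -0.82 (SE 0.19, adjusted p = 0.00829), was under the minimum. A second probe set read 8.88 ± 0.03 in KC4 against 5.32 ± 0.06 in KC1, 6.17 ± 0.24 in KC2 and 5.80 ± 0.24 in KC3. It gave -3.11 (limma adjusted p = 1.91e-07 over 34945 probe sets) and set KC4 apart, and another stayed at 4.19 to 4.79. With the mean of all probe sets of each gene, 7 members were called between the classes in place of 6. The partner chains Col5a2 (5.30 to 6.17) and Col5a3 (6.78 to 7.15) were not called. Col11a2 was called below KC2 in KC1 (-1.37, adjusted p = 0.0497), at the edge of the threshold, and lost the call without any of 10 single arrays, among them KC1 replicates 1 and 2 and each KC2 array.

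**Figure D4:**
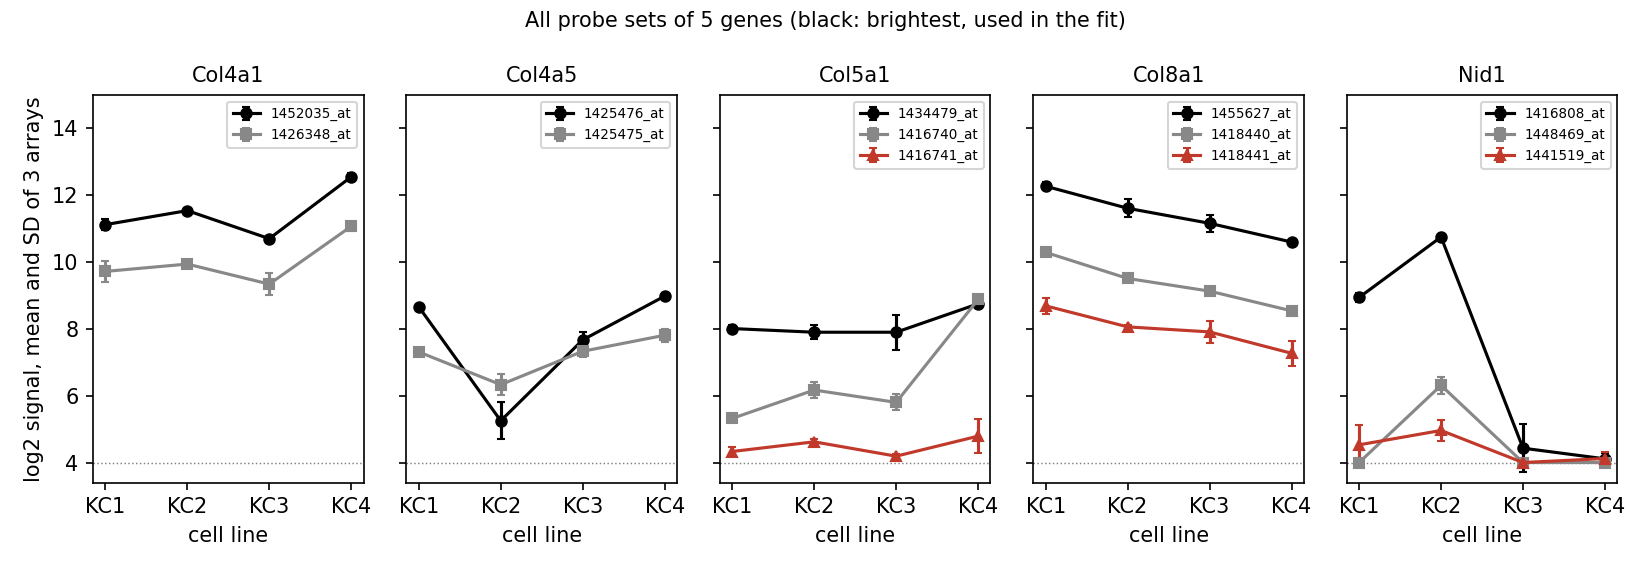
Mean log2 signal with SD (bars, n = 3 arrays) of every probe set of 5 genes in the 4 lines; black is the brightest probe set, lines join the means of 1 probe set and the dotted line is the floor. The probe sets of Col4a1 and of Col8a1 run in parallel, whereas for Col4a5, Col5a1 and Nid1 the size of the difference depends on the probe set.

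Of 10 FACIT and related collagens, many of which decorate fibrils, 1 was called in any pair, against 20.4% of all genes. This was Col20a1, called in KC2 over KC3 (1.07) and over KC4 (1.08), at values of 7.23, 6.90 and 6.98 against 5.74 to 6.33 on the other arrays. Both differences fell to 0.97 or 0.98 without KC2 replicate 1, and each also without an array of the line compared. On the mean of its probe sets, of which 1 lay at the floor on all arrays, they were 0.54 and 0.55, and at a floor of 64 they were 0.97 and 0.96. The KC2 minus KC3 difference was 0.83 after median centring and also 0.83 after quantile normalization, and was called in neither. The transmembrane collagens Col13a1, Col17a1, Col23a1 and Col25a1 were not called in any pair. Col15a1 spread widely between arrays of 1 line (7.21, 5.76 and 4.75 in KC1) and was not called.

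Genes that fold, modify and secrete collagen were read next to the chains. Of 21 measured, 3 were called between the classes (5.45% of all genes were), Plod2 higher and Serpinh1 and P4ha3 lower in the highly metastatic lines. In at least 1 pair of lines 11 of the 21 were called, 52.4% against 20.4% of all genes. Serpinh1, the collagen chaperone HSP47, was low in KC3 alone, at 7.23, 7.36 and 7.19 against 11.90 to 12.83 on all other arrays. KC1 and KC2 exceeded KC3 by 4.75 and 5.13, and KC3 minus KC4 was -5.55 on the log2 scale. P3h4, a partner of the collagen hydroxylases, and Pxdn, the peroxidase that crosslinks collagen IV, were also called lower in KC3 than in each other line, as 1.54% of all genes were. For P3h4 the KC2 minus KC3 difference of 1.06 was close to the minimum, and median centring gave -0.20 as the median of all genes for that pair. Calls of these genes between pairs of lines were not repeated under other scaling. Pxdn read 9.29, 9.26 and 9.46 in KC3, against 10.52 to 11.08 elsewhere. KC3, the line with the lowest Col4a1 mean, also had the lowest Pxdn signal, but its Col4a2 mean was that of KC1 (10.31). No relation between the chains and these genes was tested. KC4, the line with the highest Col4a1 and Col4a2, had the lowest Plod2, a lysyl hydroxylase, at 7.71, 8.06 and 8.06 against 10.34 to 11.91 (0.929% of all genes set KC4 apart by a lower signal). P4ha3, a prolyl hydroxylase subunit, was set apart in KC4 as well, at 7.32, 7.42 and 7.38 with the other lines at 4.00 to 5.24, of whose arrays 4 were on the floor.

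Of 18 cell receptors of collagens and laminins measured, 1 was called between the classes, 5.56% against 5.45% of all genes, and 6 were called in at least 1 pair of lines, 33.3% against 20.4%. The class call was Ddr2, a collagen-binding receptor kinase (-1.38, SE 0.20, limma adjusted p = 0.00067). Ddr2 did not follow the class: it read 8.39, 8.16 and 8.41 in KC3 and 7.95, 8.27 and 8.32 in KC4, but 5.46, 6.05 and 6.27 in KC1 and 6.62, 6.00 and 5.84 in KC2. KC1 and KC2 were thus parted from KC3 and KC4, as for Nid1 on its brightest probe set, in the opposite direction. For KC1 minus KC2, however, Nid1 was called (-1.80) and Ddr2 was not (-0.23). The likeness was noticed after the values were seen and was not tested. On a second Nid1 probe set KC1 lay at the floor with KC3 and KC4. Bcam, a receptor for laminins with the alpha5 chain, was called lower in KC3 than in each other line, at 10.76 ± 0.11 against 11.78 to 12.78. For KC1 minus KC3 its difference of 1.02 only just met the minimum, and median centring gave -0.21 as the median of all genes for that pair. Calls of receptor genes between pairs of lines were not repeated under other scaling. The laminin-binding integrin genes Itga3 (12.96 to 13.41), Itga6 (13.05 to 13.47) and Itgb4 (10.72 to 11.54) were not called in any pair. Itgb1, the beta chain that pairs with Itga3 and Itga6, was called lower in KC2 than in KC4 (-1.12, limma adjusted p = 4.53e-06). The other receptors called in a pair were Dag1, Ddr1 and Itga2. Dag1, the dystroglycan gene, was called for KC3 minus KC4 (-1.08), and the collagen-binding integrin Itga2 for KC1 minus KC3 (1.09). Ddr1, a collagen-binding kinase, was called for KC2 minus KC3 (2.05, SE 0.43). Its arrays spread widely, at 12.13, 10.76 and 12.23 in KC2 and 9.70, 9.11 and 10.18 in KC3. Ddr1 has 8 probe sets, and only the brightest was read.

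**Figure D5:**
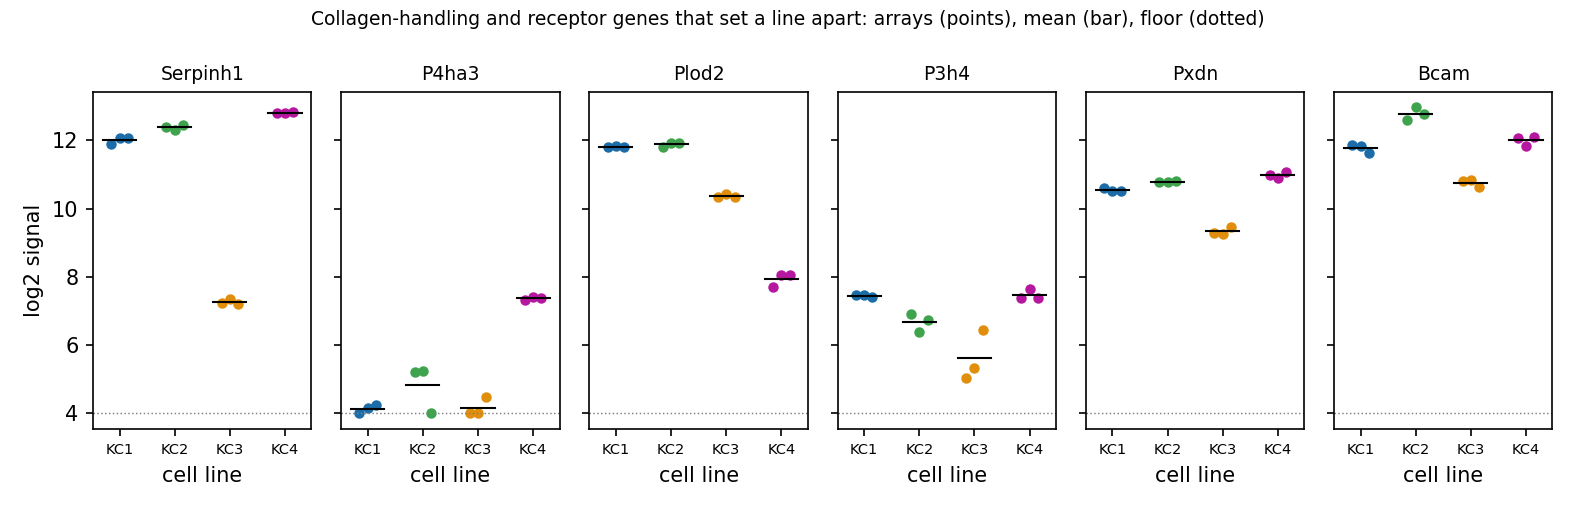
Log2 signal on each array (points) by line, with the mean (bar) and the floor (dotted), for the collagen-handling and receptor genes that set a line apart. Serpinh1, P3h4, Pxdn and Bcam are lowest in KC3, Plod2 is lowest and P4ha3 highest in KC4.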

How the data were processed

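RNA of 4 cell lines was measured on 12 arrays, 3 per line. The authors deposited linear intensity values of 45101 probe sets. What software made them is not stated in the labels; judged by its values, each array was scaled to a mean of about 500 after trimming 2% at each end (500.002 to 500.003), so a change in total messenger RNA would not be seen. After 64 control probe sets were left out, 34945 probe sets had 1 symbol in the platform annotation, 932 had several and 9160 were not listed. Signals under 16 were set to 16, log2 was taken and each gene was read on its brightest probe set (highest mean over the arrays). Differences were fitted with limma 3.58.1 in R 4.3.3 (1 coefficient per line, all arrays, checked on simulated data) and adjusted by Benjamini-Hochberg over all genes. Members, lists and tests were chosen with earlier results of these data known. By rule, members called between the classes or setting a line apart are given array by array, their partner chains beside them, and up to 6 genes per pathway list that set a line apart; other names were chosen after their values were seen. Alternatives covered the block, arrays, lines, probe sets, scaling, filter, floor, prior and minimum difference. The 43 pathway genes listed included 4, and the 39 cell type markers 1, that were not analysed here. Precision is limited by the number of arrays. Figures were drawn with matplotlib 3.10.9.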

Additional observations from a re-analysis of the deposited data

How the results depend on the processing

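Replicate numbers did not pair the arrays: same-numbered arrays of different lines had residual correlations of -0.32 to 0.31, over 0.1 in 3 of 18 pairs. Differently numbered arrays had -0.33 to 0.35, over 0.1 in 10 of 36 pairs. KC1 replicate 1, KC2 replicate 2, KC3 replicate 2 and KC4 replicate 1 correlated with each other at 0.16 to 0.35. KC1 replicate 3, KC2 replicate 1, KC3 replicate 3 and KC4 replicate 2 did so at 0.16 to 0.29. A block by number does not take up this shared spread, and its source was not tested. With the number as a replicate block the class count stayed at 6, the counts for KC2 minus KC4 and KC2 minus KC3 were 9 and 6, and every one of the 37 calls of single members kept its side. Over all alternatives that left the minimum difference at 1, 696 of 744 such values kept their call, 48 lost it and none changed sign. The 744 values repeat the same 37 calls, and only 21 of these were kept in every such alternative that tested them. Leaving out single arrays gave 6 members between the classes each time, 2 to 5 for KC1 minus KC2, 3 to 4 for KC1 minus KC3, 5 to 6 for KC1 minus KC4, 3 to 7 for KC2 minus KC3, 7 to 10 for KC2 minus KC4, 5 to 6 for KC3 minus KC4, and 2 to 3 members setting KC4 apart. Testing the brighter 50% of genes keeps 16 of the 56 members; it gave 3 between the classes, 1, 1, 3, 1, 5 and 3 for the pairs in the order KC1 minus KC2, KC1 minus KC3, KC1 minus KC4, KC2 minus KC3, KC2 minus KC4 and KC3 minus KC4, 0 setting KC2 apart and 0 receptor genes. A minimum difference of 2 gave 2 between the classes, 1, 1, 2, 2, 3 and 1 for those pairs, 1 setting KC2 apart and 1 KC4. Taking line as a random block, 3 members were called between the classes. KC2 minus KC3 gave 3 when probe sets were averaged per gene and 3 at a floor of 64, and median centring gave 1 member setting KC3 apart; the cause was not tested. Fitting every probe set, chosen after seeing the data, left the class count at 6. Median centring moved the median of all genes from 0.00 to -0.21 for KC1 minus KC3, from 0.05 to -0.20 for KC2 minus KC3 and from -0.02 to 0.16 for KC3 minus KC4.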

Other observations

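Probe sets of 1 member did not always tell the same story. Of the 36 members with more than 1 probe set, 5 (Agrn, Col14a1, Col1a2, Col20a1 and Col9a3) were never at the floor on the brightest one while another lay at the floor on all 12 arrays. Among the 53 dimmer probe sets 11 were called in at least 1 comparison, and 5 of the genes concerned (Col12a1, Col5a1, Hspg2, Lama5 and Lamb1) were not called on the brightest one. A dimmer Col12a1 probe set, for a collagen that decorates fibrils, read 5.52 ± 0.57 in KC1 against 4.00 to 4.37 in the other lines. The dimmest Lamb1 probe set gave KC2 minus KC4 as 1.01 (limma adjusted p = 0.000393 over all probe sets).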
